A study of Mus musculus with 2 samples.

Results

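Among lung cells labelled CD4+ that were profiled by droplet single-cell RNA sequencing, 543 of 11739 cells carried Tgfbi or Ccl24 together with class II genes and no transcript of the CD3 chains Cd3d, Cd3e and Cd3g. These Tgfbi/Ccl24 class II cells were chosen on counts of unique molecular identifiers (UMIs, each standing for 1 captured transcript). A cell needed at least 500 genes, under 10% mitochondrial UMIs, 0 UMIs of Cd3d, Cd3e and Cd3g, 0 of Siglech, fewer than 10 of Chil3, at least 2 of Tgfbi and Ccl24 together, and at least 2 of H2-Aa, H2-Ab1 and H2-Eb1 together. These genes chose the cells, so their levels are given below as a description. The 543 cells came as 37 from 1 library labelled Nfe2l2fl/fl, the control, and 506 from 1 library labelled Cd4cre Nfe2l2fl/fl.

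Both libraries are from mouse lung and share loxP-flanked (fl) alleles of Nfe2l2, which encodes the oxidative stress factor NRF2. The second also carries Cre recombinase under Cd4 regulatory sequences, which in mice act mainly in T cells. The animals' age is given as 8 to 15 weeks, with death 16 h after the final intranasal dose. Ova with PAO and house dust mite Der f 1 are both described as inhaled agents, and which one these libraries had is not stated. How many mice each library holds, how CD4+ cells were obtained and which exons loxP flanks are not stated either. With 1 library per group there was no replicate, so no test between groups was possible, and the intervals below (95%) cover counting error only.

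Macrophages of the lung fall into alveolar cells, which live in the airspace and clear surfactant, and interstitial cells and monocyte-derived cells, which present more antigen. Presentation to CD4 T cells uses class II molecules, paired alpha and beta chains that are held by the invariant chain Cd74 until the H2-DM proteins help load a peptide. Tgfbi encodes a secreted matrix protein and Ccl24 encodes eotaxin-2, a chemokine that attracts eosinophils. Chil3 encodes the chitinase-like protein Ym1, which is abundant in alveolar macrophages and in type 2 inflammation.

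The class II genes are known to share a promoter layout, an X box followed by a Y box, through which the transactivator CIITA acts. The 3 stretches below are shown because these genes were among the most raised in the gated cells against Chil3 cells. They come from the RefSeq promoter table (GRCm38.p6) at chr17:34287852-34287919 on the minus strand for H2-Aa, chr17:34305761-34305827 on the plus strand for H2-Eb1 and chr17:34153082-34153149 on the plus strand for H2-DMb1. Capitals mark GNAACT and then TGATTGG.
H2-Aa: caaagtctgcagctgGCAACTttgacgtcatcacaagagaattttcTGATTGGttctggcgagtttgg
H2-Eb1: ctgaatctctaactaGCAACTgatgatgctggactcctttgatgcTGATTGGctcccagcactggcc
H2-DMb1: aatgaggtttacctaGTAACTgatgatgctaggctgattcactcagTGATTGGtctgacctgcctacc
The letters were chosen after reading these promoters, and both strands of the 250 bases before each start were searched. The ordered pair with 10 to 40 bases between its parts was found in 76 of 32851 promoters (0.231%), TGATTGG alone in 7.23% and GNAACT alone in 37.3%. Of 19 class II presentation genes, 13 were in the table, and 4 of these held the pair (H2-Aa, H2-Eb1, H2-Eb2 and H2-DMb1). A match describes letters in a window, not bound protein.

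The gated cells carried the general macrophage program in both libraries. All 12 general macrophage markers were at least 2-fold above all other cells of the same library, among them the growth factor receptor Csf1r, at 266 and 287 CPM (depth-scaled UMIs of the summed cells, control first; on this scale 1.02% of UMIs is 10233 CPM) against 3.68 and 23.1 CPM elsewhere. F4/80 (Adgre1) was at 128 and 70.1 CPM against 2.78 and 10.2 CPM. Of 17 interstitial macrophage markers 10 passed 2-fold in both libraries, and of 19 alveolar markers 6. Of 12 classical monocyte markers 6 passed, and of 10 conventional dendritic cell type 2 markers 6. Of 9 markers of conventional dendritic cells type 1, 3 passed. The other cells were mostly T cells (at least 3 Cd3 UMIs), which made up 90.6% and 72.7% of filtered cells. The share of all genes past 2-fold in this contrast is not given here, so these counts lack a background. The dendritic cell receptor Flt3 had a UMI in 0 of 37 control cells and in 1 of 506 cells of the library labelled Cd4cre. The dendritic cell factor Zbtb46 had one in 0 and 2 cells. For the control library, 3 counts of 37 cells would be a share of 8.11% of cells with a UMI, so at a median of 1704 UMIs per cell these 0 counts say little about which cells express either gene. No marker of 8 for B cells, 8 for natural killer cells or 5 for red cells reached 2-fold in both libraries. The same held for 16 T cell markers, but that outcome was largely fixed in advance. The rule set Cd3d, Cd3e and Cd3g to 0, and the other cells were mostly T cells. The label of macrophage thus rests on 12 of 12 general markers against mostly T cells, with interstitial, alveolar, monocyte and dendritic genes present together.

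Cd4 itself was nearly absent, although the cells were labelled CD4+. A Cd4 UMI was seen in 3 of 37 control cells and 6 of 506 cells of the library labelled Cd4cre. The shares were 8.11% (1.70 to 21.9) and 1.19% (0.436 to 2.56), against 76.7% and 81.6% of T cells (cells with at least 3 Cd3 UMIs). Median depth was lower in gated cells, at 1704 and 2514 UMIs, than in T cells, at 6531 and 5719.5 UMIs. C1qa UMIs also occurred in T cells, in 0.325% and 1.44% of them against 45.9% and 50.8% of gated cells. Whether free RNA or doublets brought them there was not tested. Tgfbi and Ccl24 at 2 or more with class II at 2 or more were met by 18 of 4921 and 79 of 4582 T cells (0.366% and 1.72%). No doublet removal was applied to the main values.

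The rule's own genes were spread widely among the gated cells. Tgfbi (GRCm38 chromosome 13, 56609523 to 56639562) had a median of 5 UMIs per control cell (range 0 to 31) and 9 UMIs in the library labelled Cd4cre (0 to 79). Ccl24 (chromosome 5, 135569937 to 135573049) had a median of 9 UMIs (0 to 112) and 11 UMIs (0 to 508). The 3 class II genes together had medians of 10 UMIs (2 to 221) and 16 UMIs (2 to 667), and made up 1.02% and 1.10% of all UMIs of the gated cells. Both Tgfbi and Ccl24 were seen in 31 of 37 and 437 of 506 cells, so most cells did not enter on 1 of the pair alone. Chil3 was at 0 in 22 of 37 and 268 of 506 cells. Just inside the limit, at Chil3 of 5 to 9 UMIs, lay 7 and 72 cells, and just outside it by Chil3 alone, at 10 to 14 UMIs, lay 6 and 48. Another 14 and 101 cells met everything but had a Cd3 UMI.

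The gated cells were the larger share in the library labelled Cd4cre. They were 0.681% of filtered cells in the control library (37 of 5433, interval 0.480 to 0.937) and 8.02% in the library labelled Cd4cre (506 of 6306, 7.37 to 8.72), a difference of 7.34 percentage points (6.65 to 8.06). Among cells without a Cd3 UMI they were 8.77% (37 of 422) and 33.6% (506 of 1508), a difference of 24.8 points (20.9 to 28.2). Cells with at least 10 Chil3 and 3 Lyz2 UMIs, called Chil3 cells here, were 5.10% (277 cells) and 10.8% (681 cells), a difference of 5.70 points (4.74 to 6.67). There were 0.134 gated cells for each Chil3 cell in the control library and 0.743 in the library labelled Cd4cre. How the CD4+ cells were obtained is not stated, so a difference in that step and one in the lung cannot be told apart. Of 49 barcodes that occurred in both libraries, 1 was a gated control cell and 4 were gated cells of the library labelled Cd4cre, and none was gated in both.

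The targeted gene does not check the labels of these macrophages. Nfe2l2 (chromosome 2, 75675513 to 75704641) was at 128 CPM in the 37 control cells (12 UMIs) and at 215 CPM in the 506 cells of the library labelled Cd4cre (359 UMIs), a log2 ratio of 0.75 (-0.07 to 1.72). In Chil3 cells it was at 110 and 158 CPM, and in T cells at 31.8 and 172 CPM. Reads come from transcript 5' ends, and the deleted exons are not given, so these levels neither show nor contradict a deletion, and every direction between libraries rests on the labels.

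Against Chil3 cells, the gated cells held far more antigen presentation transcripts. H2-Eb1, the beta chain of I-E, was at 2750 CPM in gated and 172 CPM in Chil3 cells of the control library and at 2860 and 566 CPM in the library labelled Cd4cre. H2-Aa, the alpha chain of I-A, was at 3795 and 377 CPM and then 4059 and 944 CPM. H2-Ab1, its partner, was at 3688 and 352 CPM and then 4057 and 977 CPM. These 3 genes were part of the choice. Cd74, outside the rule, was at 12098 and 1199 CPM in the control library and at 11210 and 2958 CPM in the library labelled Cd4cre. Its log2 ratios were 3.33 (3.22 to 3.45) and 1.92 (1.89 to 1.96). H2-DMb1, a subunit of the peptide loading protein, was at 373 and 88.3 CPM and then 461 and 120 CPM. In the gated cells the summed levels of all of these were alike in both libraries. Chil3 cells of the library labelled Cd4cre held more of each than control Chil3 cells. The gate required class II UMIs in both libraries, and Chil3 cells had no such condition. Of Chil3 cells, 65 of 277 in the control library (23.5%) and 329 of 681 in the library labelled Cd4cre (48.3%) met every other condition of the gate, class II included.

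For counting, a gene was called when gated over Chil3 cells passed 2-fold the same way in both libraries after adding 10 CPM, among 2603 genes at 50 CPM or more. The call was higher for 24 genes (0.922%) and lower for 43 (1.65%), together 2.57%. Scaling by the median of ratios instead gave 16 higher and 49 lower. For the control library taken alone, 8.80% of genes were higher and 6.92% lower. For the library labelled Cd4cre these shares were 1.19% and 1.92%. The median over all tested genes was 0.12 and 0.07 on the log2 scale. Since the cells were chosen within this contrast, these counts describe how far the cells were set apart and test nothing. The class II presentation list had 11 tested members, of which 6 were at least 2-fold higher in both libraries and 0 lower, with median log2 ratios of 1.96 and 1.04. Without the 3 genes of the rule, 3 of 8 were higher (Cd74, H2-DMa and H2-DMb1) and 0 lower, with medians of 1.41 and 0.67. The reductase Ifi30 was at 1919 and 812 CPM and then 2075 and 1302 CPM. The protease Ctss, which trims the invariant chain, went the other way, at 2462 and 3833 CPM and then 2332 and 3966 CPM. Lgmn, another endosomal protease, was near equal, at 2718 and 2522 CPM and then 2162 and 1979 CPM.

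**Figure D1:**
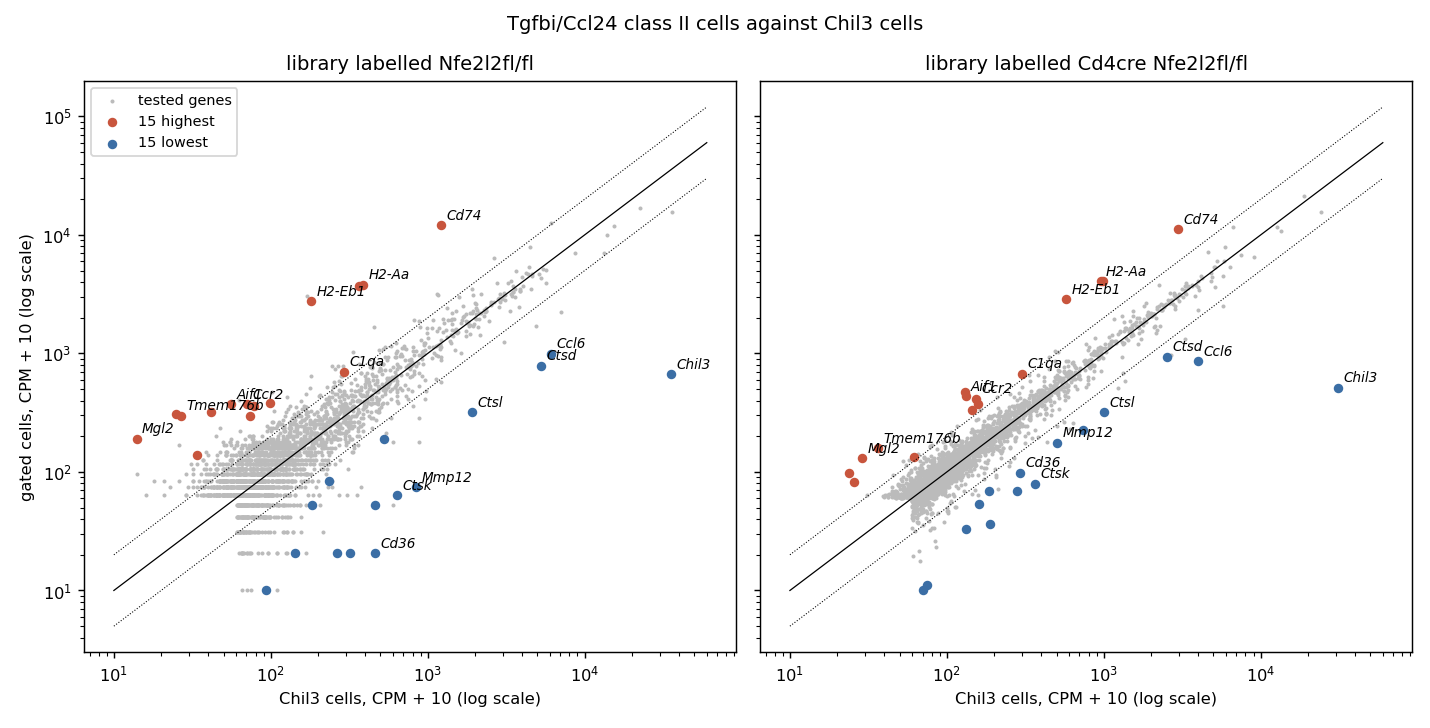
Each point is 1 of 2603 tested genes, with its level in Chil3 cells on the horizontal axis and in gated cells on the vertical axis (CPM plus 10, log scales), 1 panel per library; red and blue mark the 15 highest and 15 lowest named genes, and lines mark equality and 2-fold. Cd74 and the class II genes lie above the 2-fold line in both panels, and Chil3, Ccl6 and the cathepsins Ctsd and Ctsl lie below it.

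Other genes raised in the gated cells included 1 of 7 tested classical monocyte markers (Ccr2) and 4 of 13 tested interstitial markers (C1qa, C1qb, Tmem176a and Tmem176b), against 0.922% of all tested genes. Ccr2, the receptor that brings monocytes to inflamed tissue, was at 362 and 60.5 CPM in the control library and at 405 and 144 CPM in the library labelled Cd4cre, with log2 ratios of 2.58 (1.93 to 3.21) and 1.49 (1.32 to 1.67). Aif1, an actin-binding macrophage protein, was at 362 and 45.7 CPM and then 423 and 122 CPM. The complement genes C1qa and C1qb, typical of interstitial macrophages, were at 693 and 285 CPM and at 1087 and 510 CPM in the control library. In the library labelled Cd4cre C1qa was at 662 and 293 CPM and C1qb at 1041 and 480 CPM. C1qc was at 512 and 389 CPM and then 513 and 293 CPM, and did not reach 2-fold. Of 10 tested complement genes these 2 were higher in both libraries and 0 lower, and 0 of the 13 interstitial markers were lower, against 1.65% of all tested genes.

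The C-type lectin Mgl2 was at 181 and 3.97 CPM in the control library, from 17 UMIs in 5 gated cells, and at 121 and 18.9 CPM in the library labelled Cd4cre, from 202 UMIs in 77 cells. Tmem176b, a channel-like membrane protein of myeloid cells, was at 288 and 16.9 CPM and then 149 and 26.4 CPM. Tmem176a was at 298 and 14.9 CPM and then 87.5 and 13.9 CPM, and 1 control cell held 60.7% of its control UMIs. That cell also held 10 of 27 control Tmem176b UMIs, and is the cell with all control Ccr7 UMIs described below. Fcgrt, the neonatal Fc receptor, was at 128 and 23.8 CPM and then 72.5 and 15.6 CPM. Selenop, a selenium carrier, was at 288 and 63.5 CPM and then 123 and 51.4 CPM. Lst1 and Plbd1 were at 352 and 309 CPM in control gated cells against 68.5 and 31.8 CPM in control Chil3 cells. In the library labelled Cd4cre they were at 365 and 321 CPM against 148 and 136 CPM. The alternative activation list, which covers the type 2 cytokine response, split: of 15 tested genes 2 (Mgl2 and Retnla) were higher and 2 (Chil3, set by the rule, and Ch25h) lower in both libraries. Arg1, the arginine-degrading enzyme of this response, was at 4370 and 3983 CPM and then 3633 and 5137 CPM.

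The 43 lower genes included 3 alveolar markers, among them Chil3, which the rule set. They also included 4 lysosomal genes, with Ctsk on both lists, chemokines and genes of no list. Ccl6, a chemokine of alveolar macrophages, was at 981 CPM in gated and 6087 CPM in Chil3 cells of the control library and at 854 and 3982 CPM in the library labelled Cd4cre. The lysosomal protease Ctsd was at 778 and 5280 CPM and then 926 and 2504 CPM, and Ctsl at 309 and 1899 CPM and then 311 and 992 CPM. Ctsk, a collagen-degrading protease, was at 53.3 and 624 CPM and then 69.5 and 354 CPM. The proton pump subunit Atp6v0d2 was at 42.6 and 455 CPM and then 59.4 and 271 CPM. Mmp12, the macrophage elastase, was at 64.0 and 834 CPM and then 166 and 494 CPM. The fatty acid receptor Cd36 was at 10.7 and 452 CPM and then 88.7 and 282 CPM. Spp1, osteopontin, was at 1695 and 4881 CPM and then 1309 and 3303 CPM.

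Of 24 tested lysosomal genes, 4 (Ctsd, Ctsl, Ctsk and Gpnmb) were at least 2-fold lower in both libraries and 0 higher, and the medians were -0.23 and -0.39. Other proteases of the list were not 2-fold lower: Ctsb was at 2835 and 3088 CPM and then 2774 and 3022 CPM, and Ctsc at 640 and 388 CPM and then 728 and 440 CPM. Of 9 tested alveolar markers, 3 were lower (Chil3, set by the rule, Ctsk and Atp6v0d2) and 0 higher. The medians of -1.67 and -0.56 include Chil3, and medians without it were not computed. Fabp4 was at 362 and 501 CPM and then 299 and 420 CPM. Among 18 tested chemokines 4 were lower (Ccl5, Ccl6, Cxcl1 and Cxcl3) and 0 higher, and Cxcl16 was at 735 and 245 CPM and then 651 and 370 CPM. Among 19 tested NRF2 targets 1 was lower, near the background of 1.65%, and 0 were higher. It was Mgst1, a glutathione transferase, at 74.6 and 226 CPM and then 58.8 and 175 CPM. The iron store subunit Fth1 was at 15520 and 35763 CPM and then 15717 and 24364 CPM. No gene passed in either direction among 16 tested interferon genes, 15 glycolysis genes and 15 class I genes. A background of 2.57% leaves little room for a call there. Short of 2-fold, 14 interferon genes were higher in both libraries and 0 lower. Their median log2 ratios were 0.999 and 0.22, against 0.12 and 0.07 over all tested genes. For glycolysis genes 4 were higher and 8 lower in both libraries, and for class I genes 4 and 4. Among 10 tested growth factors 3 (Areg, Gdf15 and Inhba) were lower and 0 higher, and among 16 matrix genes 2 (Mmp12 and Spp1) were lower.

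Lower levels of T cell genes came with the choice of cells. T cell markers summed to 245 and 131 CPM in gated cells and to 850 and 632 CPM in Chil3 cells, and 18.4% and 16.6% of Chil3 cells held a Cd3 UMI, which the gate forbids. Markers at 0 UMIs in gated cells of both libraries were 3 of 16. With Chil3 cells limited to those without a Cd3 UMI, 26 genes were higher and 44 lower, while Lat, a T cell signaling adaptor, and Areg, a growth factor, no longer went the same way in both libraries.

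**Figure D2:**
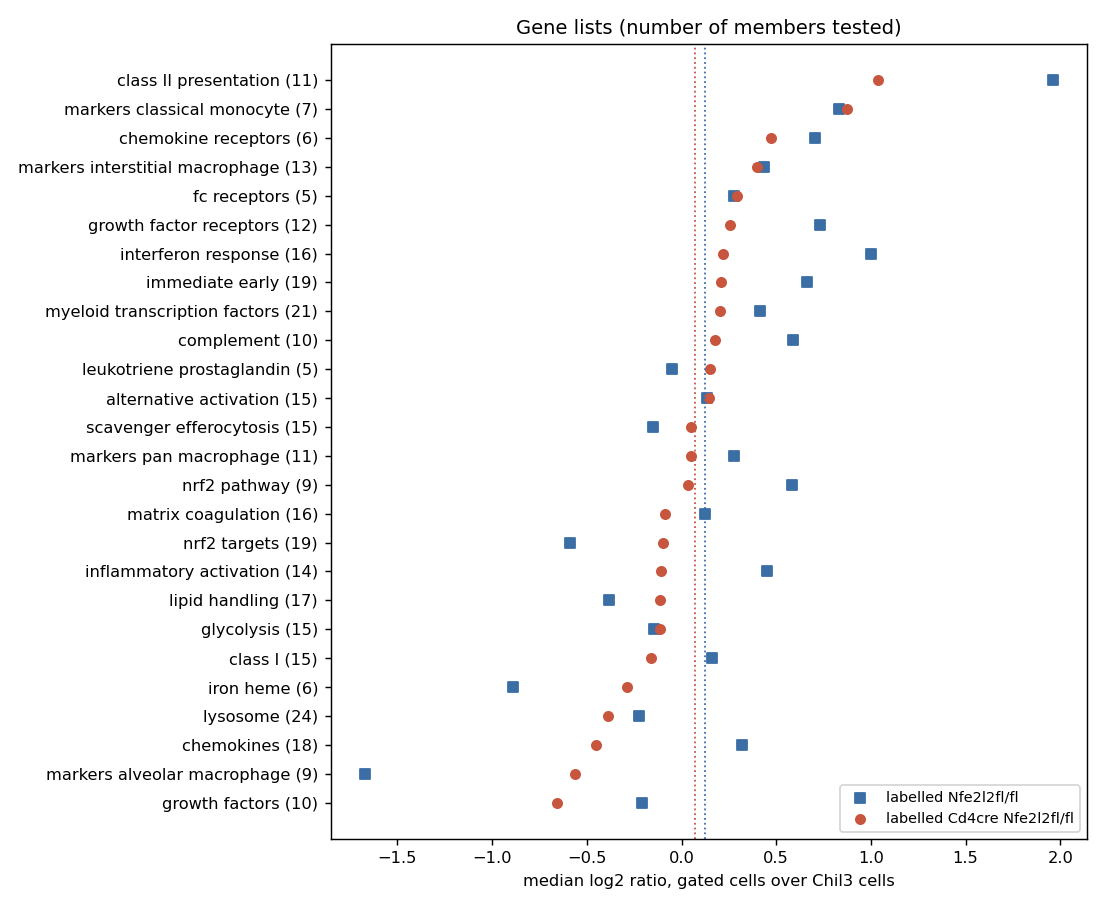
Points give the median log2 ratio of gated over Chil3 cells for each gene list with at least 5 tested members (number in brackets), squares for the library labelled Nfe2l2fl/fl and circles for the library labelled Cd4cre Nfe2l2fl/fl; dotted lines are the medians over all tested genes. Class II presentation, at 1.96 and 1.04, includes 3 genes that chose the cells, and without them its medians were 1.41 and 0.67. The alveolar marker list includes Chil3, which the rule set.

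The limit at 10 Chil3 UMIs cut through a gradient in the library labelled Cd4cre. Without the class II condition, the 3 class II genes summed to 11454 CPM in its 310 cells with 0 Chil3 UMIs, to 7390 CPM at 1 to 4 UMIs (205 cells) and to 6214 CPM at 5 to 9 (94 cells). Beyond the limit they summed to 3972 CPM at 10 to 29 (201 cells), 3670 CPM at 30 to 99 (228 cells) and 1359 CPM at 100 or more (215 cells). Ccr2 was nearly level up to 29 Chil3 UMIs, at 400, 368, 355 and 323 CPM, and then stood at 203 and 39.5 CPM. Ctsd ran the other way, at 961, 924 and 1041 CPM inside the limit and 1614, 2107 and 3059 CPM outside it. Ccl24 was at 6632, 7913 and 7514 CPM inside and at 7777, 5608 and 5051 CPM outside. A sum of Tgfbi and Ccl24 of at least 2 was required in every bin, and class II was not, so the levels of Ccl24 and class II cannot be set against each other here.

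In the control library the bins inside the limit held 29, 15 and 12 cells. Class II summed to 4349, 6306 and 7765 CPM there, and to 2364, 1300 and 735 CPM outside it. At 1 to 4 Chil3 UMIs, 1 cell of 17577 UMIs that failed the class II condition held 86.1% of Ctsd UMIs and 72.9% of Lyz2 UMIs, and without it Ctsd was at 873 in place of 4570 CPM. Of cells with fewer than 10 Chil3 UMIs that met all conditions but class II, the class II condition was met by 37 of 56 control cells (66.1%, 52.2 to 78.2) and by 506 of 609 cells of the library labelled Cd4cre (83.1%, 79.9 to 86.0). Median depth differed between libraries in these bins, at 1692 and 2485 UMIs for cells with 0 Chil3 UMIs, and its part in these shares was not tested.

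**Figure D3:**
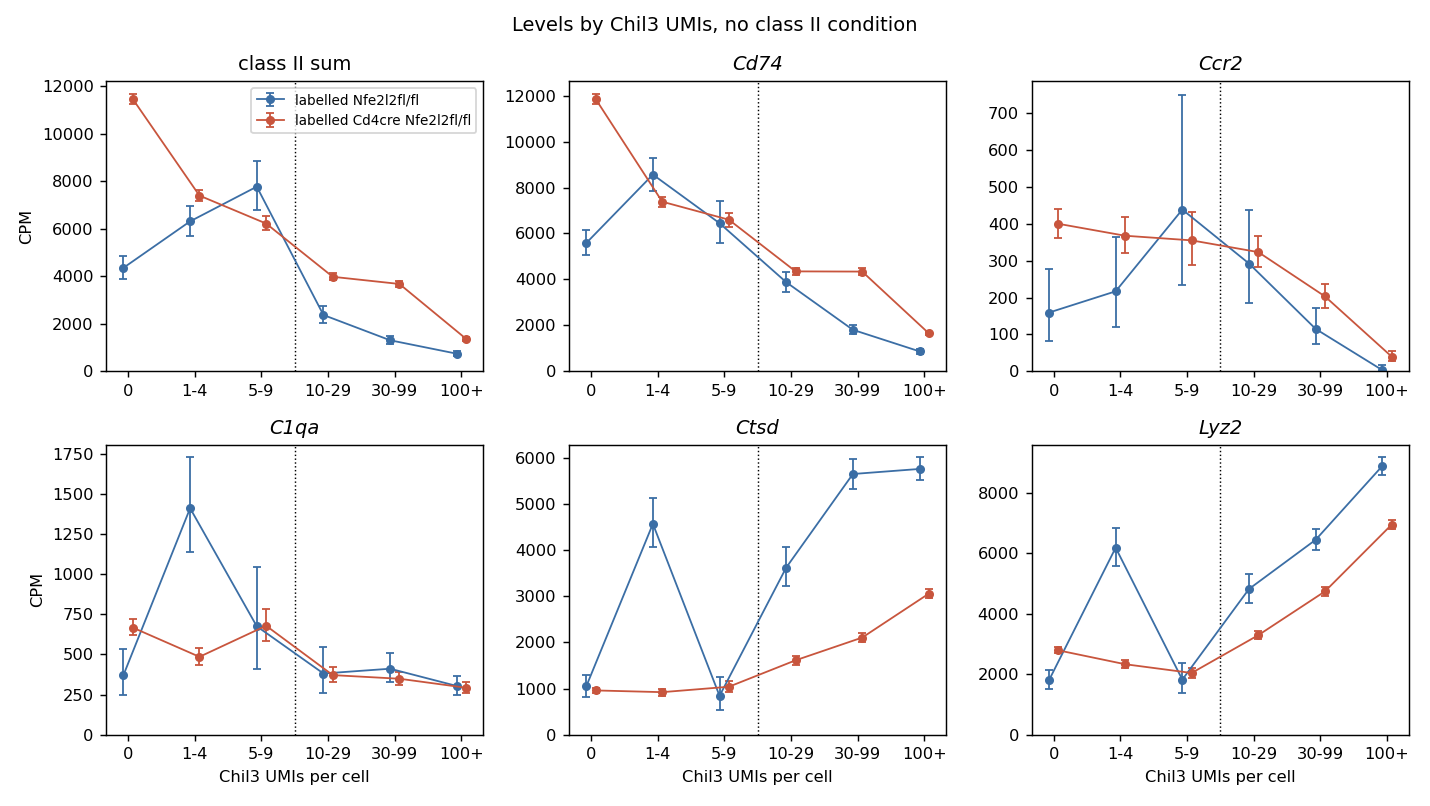
Levels (CPM, with 95% counting intervals) of the class II sum, Cd74, Ccr2, C1qa, Ctsd and Lyz2 against Chil3 UMIs per cell, in cells that met every other condition except class II, for the library labelled Nfe2l2fl/fl (blue) and the library labelled Cd4cre Nfe2l2fl/fl (red); the dotted line is the limit of the gate. Class II falls from 11454 to 1359 CPM along the axis in the library labelled Cd4cre, and the raised control point for Ctsd at 1 to 4 UMIs comes mostly from 1 cell.

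Between libraries, the class II and complement genes of the gated cells stood at like levels. H2-Aa was at 3795 and 4059 CPM, H2-Ab1 at 3688 and 4057 CPM, H2-Eb1 at 2750 and 2860 CPM and Cd74 at 12098 and 11210 CPM (log2 -0.11, -0.20 to -0.02). Ccr2 was at 362 and 405 CPM (log2 0.16, -0.34 to 0.70), C1qa at 693 and 662 CPM (-0.06, -0.43 to 0.32) and Fth1 at 15520 and 15717 CPM (0.02, -0.06 to 0.10). In Chil3 cells Cd74 was at 1199 and 2958 CPM (log2 1.30, 1.22 to 1.39), Ccr2 at 60.5 and 144 CPM (1.25, 0.86 to 1.66) and Fth1 at 35763 and 24364 CPM (-0.55, -0.57 to -0.54). C1qa was close there too, at 285 and 293 CPM (0.04, -0.15 to 0.24). Class II above a minimum was required of gated cells and not of Chil3 cells, so these like levels hold for cells that met the rule. Without that condition, the class II sum in cells with 0 Chil3 UMIs was 4349 CPM (29 control cells) and 11454 CPM (310 cells). Cd74 was at 5582 and 11869 CPM there. At 1 to 4 Chil3 UMIs the class II sums were 6306 and 7390 CPM, and at 5 to 9 they were 7765 and 6214 CPM.

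The control sum held 93817 UMIs against 1668008, so 50 CPM stood for 4.69 control UMIs and few genes could be compared well. Relative to the control, 146 of 3187 genes were past 2-fold higher (4.58%) and 189 lower (5.93%), but 320 of these 335 had under 20 control UMIs. Among 714 genes with at least 20 control UMIs, 3 were higher (0.420%) and 12 lower (1.68%). In Chil3 cells, with more cells in each library, 35 of 2738 genes were higher (1.28%) and 29 lower (1.06%).

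The 3 higher genes with at least 20 control UMIs were Tgm2, Ifi27l2a and Ccl12, named after their values were seen. Tgm2, the protein-linking transglutaminase, was at 213 and 845 CPM (20 and 1410 UMIs, log2 of the ratio with 10 CPM added 1.94), and 12 of 37 and 293 of 506 cells held it. The interferon-induced gene Ifi27l2a was at 821 and 1925 CPM (1.22), and the monocyte chemokine Ccl12 at 298 and 650 CPM (1.10). In Chil3 cells the same 3 log2 ratios were 0.92, 1.23 and 1.13. Il1b, the inflammatory cytokine, was at 1183 and 2274 CPM. Without the cell that held most of its UMIs in each library, Tgm2 stood at 2.09, Ifi27l2a at 1.77 and Ccl12 at 1.24.

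The 12 lower genes were Ccr7, Tmem123, Tmem176a, Retnla, Pf4, Selenop, Marcksl1, Jun, Anxa3, Prrc2c, Tnf and Chka, also named after their values were seen. Retnla, a secreted protein of type 2 inflammation, was at 3017 and 1009 CPM (log2 -1.57), but 160 of its 283 control UMIs lay in 1 cell, and without the top cell of each library the log2 ratio was -0.52. Pf4, a chemokine of platelets and of some tissue macrophages, was at 725 and 281 CPM (-1.34, without the top cells -0.69), and in Chil3 cells at 626 and 220 CPM. Jun, an immediate early factor, was at 1151 and 515 CPM (-1.15, without the top cells -0.91), and Tnf at 842 and 391 CPM (-1.09 and -0.88). Selenop and Chka stayed past 2-fold without the top cells, at -1.06 and -1.04.

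Among all genes at 50 CPM, the order by size was led by low counts. Edn1, Slfn4, Vegfa and H2-M2 had 0 control UMIs and 142, 128, 120 and 108 UMIs in the library labelled Cd4cre. Against a floor of 3 counts in the control sum, they were 2.66-fold, 2.40-fold, 2.25-fold and 2.02-fold higher. These folds leave out counting error and are not lower bounds. The 95% intervals of the log2 ratios began at 1.10 for Edn1, 0.94 for Slfn4, 0.85 for Vegfa and 0.69 for H2-M2. For Brd7 and Fdps the same floor gave 1.69-fold each, and both intervals began at a log2 ratio of 0.43. S100a9, a neutrophil protein, also had 0 and 142 UMIs, of which 138 lay in 1 cell. Plac8, a gene of recently arrived monocytes, was at 95.9 and 642 CPM (9 and 1071 UMIs), and Ly6c2, the classical monocyte marker, at 32.0 and 177 CPM (3 and 295 UMIs, the 3 in 1 cell). In Chil3 cells Plac8 was at 64.5 and 323 CPM and Ly6c2 at 25.8 and 116 CPM. T cells held Plac8 as well, at 477 and 504 CPM, and Ly6c2 at 10.4 and 50.1 CPM, so Plac8 was not particular to monocytes here. Cd36, Inhba and Dennd4a had 1, 1 and 2 control UMIs, and their log2 ratios were 2.26, 2.15 and 2.08 with 10 CPM added.

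Of the 12 lowest genes, 5 came from 1 control cell. All control UMIs of Ccr7 (23), Fscn1 (8), Nudt17 (8), Cacnb3 (6) and Clu (5) lay in 1 cell of 6861 UMIs, as did 16 of 21 of Tmem123. Ccr7, a lymph node homing receptor, and Fscn1, an actin bundler, are known from migratory dendritic cells. This cell had 0 Tgfbi, 2 Ccl24 and 0 Lyz2 UMIs, the lowest summed Tgfbi and Ccl24 count the rule allows. Ttc3 (9 control UMIs in 9 cells) was at 95.9 and 13.2 CPM. Fcrls, Npl, Alox15, Mpst and Ube2g1 rested on 5 to 7 control UMIs.

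**Figure D4:**
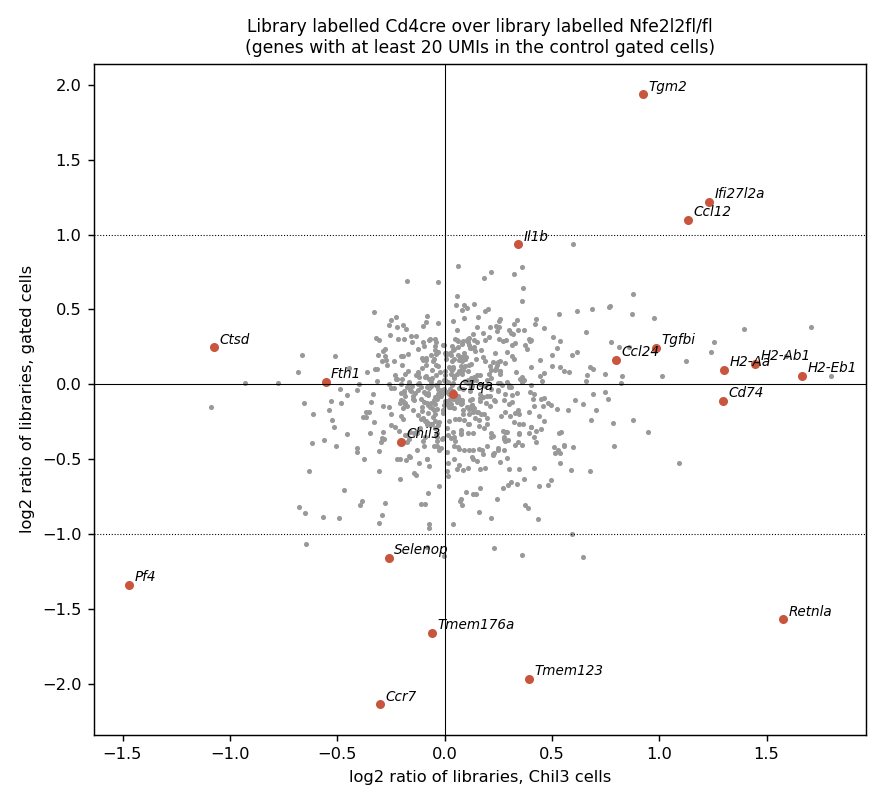
Each point is a gene with at least 20 UMIs in the control gated cells; axes give the log2 ratio of the library labelled Cd4cre over the library labelled Nfe2l2fl/fl (10 CPM added) in Chil3 cells (horizontal) and gated cells (vertical), with dotted lines at 2-fold. Tgm2, Ifi27l2a and Ccl12 lie above the upper line, and the class II genes and Cd74 lie near 0 in gated cells and to the right in Chil3 cells.

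The gated cells were not uniform. Clustering without the genes of the rule gave 5 sub-clusters at a resolution of 0.5 and 9 at 1; the 5 are kept by number, since leading genes of several rested on few cells. These clusters were made from the same cells, so their genes are a description. Class II differed between them. H2-Aa was at 6017 and 6071 CPM in sub-clusters 1 and 4, and at 2946, 2642 and 3550 CPM in sub-clusters 2, 3 and 5. Cd74 was at 16195, 8414, 7560, 16748 and 9638 CPM from sub-cluster 1 to 5. H2-Aa, H2-Ab1 and H2-Eb1 were left out of the clustering, but Cd74 and other class II presentation genes could enter it. The class II differences are therefore not independent of the clustering.

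Sub-cluster 1 (10 control and 78 Cd4cre cells) held the highest levels of C1qa, Retnla and Mgl2 among the 5. Retnla was at 6279 CPM there against 298 CPM in the other gated cells, in 60 of 88 cells, and Mgl2 at 635 against 43.4 CPM, in 35 cells. C1qa was at 1566 CPM, and the dendritic lectin Cd209a at 191 CPM. Its first leading genes Ccl22, Ccl17 and Ccr7 were seen in 6, 21 and 5 of 88 cells, and so mark a minority. At least 2-fold above the other gated cells, at 10 CPM or more, were 7 of 8 migratory dendritic cell markers and 5 of 10 markers of conventional dendritic cells type 2. So were 8 of 17 interstitial markers and 0 of 12 general macrophage markers. The same share over all genes was not computed. Arg1, at 1258 CPM, was the lowest of the 5.

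Sub-cluster 2 (15 and 158 cells) was led by Gpnmb, a lysosomal glycoprotein, at 616 against 21.8 CPM, in 67 of 173 cells. The serum amyloid gene Saa3 was at 410 against 27.0 CPM and Acod1, the itaconate enzyme, at 143 against 11.3 CPM. Spp1 was at 2560 CPM and Lyz2 at 3705 CPM, the highest of the 5 sub-clusters. S100a9 led here too, but 99.3% of its UMIs lay in 1 cell. Sub-cluster 3 (4 and 140 cells) had weak leading genes, among them the ribosome assembly gene Rrp12 at 62.1 against 16.2 CPM. It held the highest Ccl24, at 11502 CPM, and Tgfbi, at 5482 CPM, and the lowest Lyz2, at 1110 CPM. Arg1 was at 5549 CPM there and at 5508 CPM in sub-cluster 5.

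Sub-cluster 4 (6 and 98 cells) was led by Ace, at 112 against 5.15 CPM in 13 of 104 cells, and held Cx3cr1, the fractalkine receptor, at 69.6 against 12.5 CPM. Plac8 was at 1304 CPM and Spp1 at 204 CPM, the lowest. Of 10 markers of nonclassical monocytes, 7 were at least 2-fold above the other gated cells (Ace, Treml4, Spn, Pou2f2, Gngt2, Adgre4 and Itgal). So were 5 of 8 endothelial markers (Cdh5, Cldn5, Kdr, Ramp2 and Egfl7). Here too 10 CPM sufficed, and the share over all genes was not computed. In the library labelled Cd4cre, gated cells with a UMI ranged from 2 for Treml4 to 152 for Gngt2, with 5 for Egfl7. The leading gene Igfbp7 was seen in 7 cells, with 60.6% of its UMIs in 1. Sub-cluster 5 (2 and 32 cells) was led by interferon genes. Cxcl10 was at 2882 against 166 CPM and Rsad2 at 1593 against 133 CPM, each in 24 of 34 cells, and Ifit3 was at 413 against 18.1 CPM. Plac8 was at 2203 CPM and Ly6c2 at 679 CPM, the highest of the 5. Of control gated cells, sub-clusters 1 to 5 held 27.0%, 40.5%, 10.8%, 16.2% and 5.41%, and of those labelled Cd4cre 15.4%, 31.2%, 27.7%, 19.4% and 6.32%. With 2 to 15 control cells each, no difference is read from these shares.

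**Figure D5:**
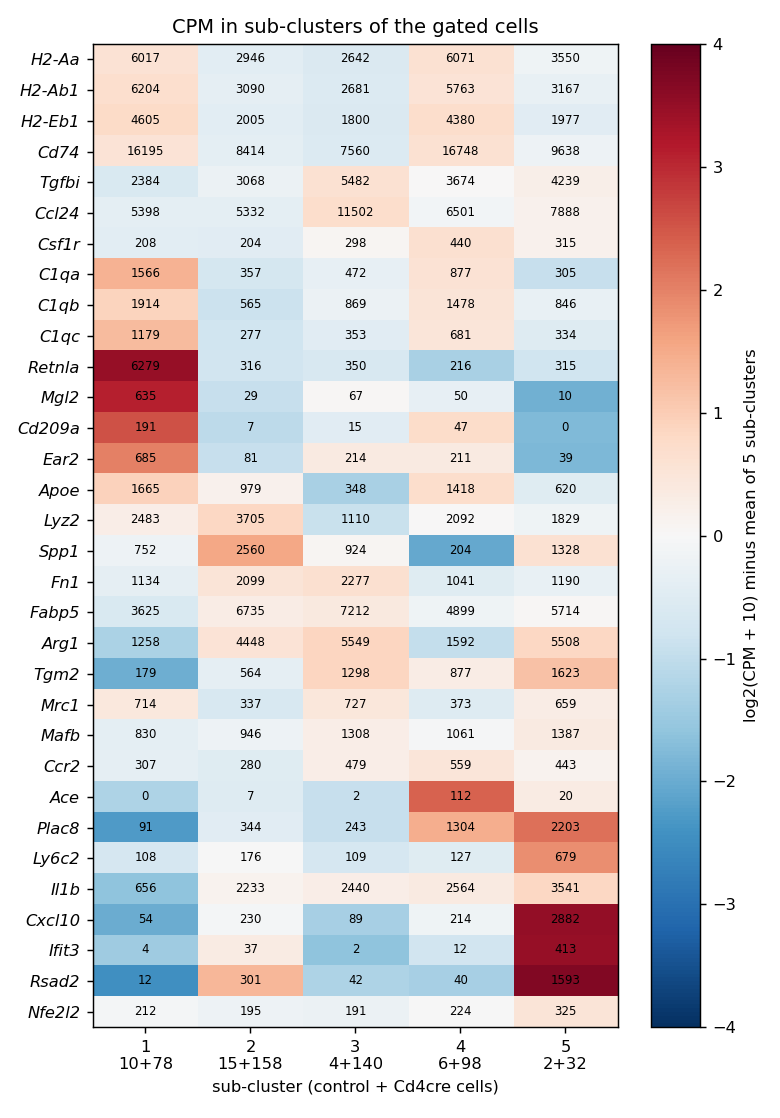
Rows are genes and columns the 5 sub-clusters, with control and Cd4cre cell numbers below; printed values are CPM over all gated cells of a sub-cluster, and colour is log2(CPM + 10) minus the mean over the 5. Retnla and Mgl2 stand out in sub-cluster 1, Spp1 in 2, Ace in 4 and Cxcl10, Ifit3 and Rsad2 in 5.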

How the data were processed

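The authors deposited 1 count matrix per library with raw UMI counts per gene and barcode, made with Cell Ranger 4.0.0 on GRCm38 per the submitters' processing notes; per the labels, 5' version 2 reagents were used. The feature and barcode files, deposited as other text, give gene names (32158 of 32285 IDs were in GENCODE M21). Libraries held 41391255 and 38744058 UMIs in 5729 and 6808 barcodes. Counts were summed over cells, scaled to CPM and compared with Python 3.11.15, numpy 2.4.6, scipy 1.17.1, pandas 2.3.3 and scanpy 1.11.5. Intervals are exact Poisson (levels), exact binomial (ratios, shares) or Newcombe (differences). The script was tested on simulated counts. Scrublet marked 0.0368% and 0.412% of cells, far below the expected rate, and so had not worked; the highest scores were removed as an alternative only.

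The members and the 42 gene lists were chosen with earlier results of these data known. Named were the 15 genes with the highest and the 15 with the lowest smaller log2 ratio of the libraries, 12 and 12 between libraries, the leading 8 of each sub-cluster and list members by counts or size. T cell receptor, immunoglobulin, hemoglobin, mitochondrial, ribosomal protein, Xist, chromosome Y genes and unnamed gene models were left out of those orders.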

Additional observations from a re-analysis of the deposited data

Results flagged for a closer look

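For 15 named genes the library labelled Cd4cre was above the control in 1 of the 2 cell sets and below it in the other, with both counting intervals away from equality. Only named genes and list members were checked, many of them picked for the size of their ratios. The share over all genes was not computed, so the count of 15 has no background. The difference was not tested, as each group is 1 library. Log2 ratios with 10 CPM added are given for gated cells and then for Chil3 cells.

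Higher in gated and lower in Chil3 cells were H2-M2 (2.90 and -0.74), the fatty acid receptor Cd36 (2.26 and -0.66), the heme pathway enzyme Blvrb (1.92 and -0.38), the chemokine Ccl17 (1.54 and -1.55), the elastase Mmp12 (1.25 and -0.74) and Gngt2 (0.94 and -0.41). The 6 rested on 0 to 9 control UMIs in gated cells.

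Lower in gated and higher in Chil3 cells were Retnla (-1.57 and 1.58), Psmb9 (-0.81 and 0.37), Cd83 (-0.68 and 0.30), Atf3 (-0.44 and 0.53), Tnfaip3 (-0.44 and 0.25), H2-D1 (-0.32 and 0.28), Ccl8 (-0.29 and 0.40), Arg1 (-0.27 and 0.37) and Cd74 (-0.11 and 1.30). Retnla was at 3017 and 1009 CPM in gated cells and at 161 and 499 CPM in Chil3 cells, and 56.5% of its control UMIs in gated cells lay in 1 cell. For Cd74 that share was 31.6% (359 of 1135 UMIs) and for Arg1 23.7% (97 of 410). Ratios of Cd74 and Arg1 without these cells were not computed, so their direction in gated cells may rest on 1 cell.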

How the results depend on the processing

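No paired analysis was possible because only 1 library stands for each genotype. The difference in share, 7.34 points, was 5.19 with at least 1000 genes per barcode, 8.11 with 200, 6.36 with Tgfbi and Ccl24 both required, 3.45 with class II at 20, 5.48 with Chil3 under 3 and 5.88 with 7 more T cell genes at 0. It kept its sign under each setting run.

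Against Chil3 cells, 24 genes higher became 47 with Chil3 cells at 30 Chil3 and 10 Lyz2 UMIs, 14 with 50 CPM added and 39 with no minimum, and 43 lower became 22 with 50 CPM added and 86 with no minimum. Areg and Lat (averaged over cells, and with Chil3 cells without Cd3 UMIs) and Runx3 (1000 genes, class II at 20, and thinned to 2000 UMIs) had opposite directions in the libraries, a smaller ratio of 0.

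Between libraries, 146 genes higher and 189 lower became 287 and 407 with 1000 genes, 375 and 463 with class II at 20, 259 and 294 with Chil3 under 3, 415 and 642 thinned, 29 and 23 with 50 CPM added, 44 and 63 at 100 CPM, 966 and 586 with no minimum, and 3 and 12 at 20 control UMIs. Higher became 247 with 7 more T cell genes at 0. Lower became 286 with Tgfbi and Ccl24 both required, 329 averaged over cells and 284 with 1 CPM added. The control gate then held as few as 10 cells (class II at 20), 13 (1000 genes) and 16 (thinned).

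Genes of the 1 Ccr7 cell changed sign where it left the gate. In the order Tgfbi+Ccl24 at 5, both required, 7 more T cell genes, highest doublet scores removed and rare cells left out, Ccr7 was 2.59, 1.97, 0.58, 2.54 and 0.57, Cacnb3 0.65, 0.10, 0.12, 0.68 and 0.17, Clu 0.17, 0.19, 0.22, 0.24 and 0.24, and Fscn1 0.59, 0.19, 0.22, 0.57 and 0.17. Nudt17 was 0.10 with both required, 0.084 with doublet scores and 0.085 with rare cells removed, and Tmem123 was 0.34 with Tgfbi+Ccl24 at 5. Fcrls was 0.96 thinned, Pf4 0.094 with 1000 genes and Tmem176a 0.44 with both required, and the cause was not tested. This last setting left out the Ccr7 cell, which held 17 of 28 control Tmem176a UMIs. Without only the top cell of each library, Tmem176a stood at -0.53. Leaving out rare cells, counting at 20 control UMIs and limiting Chil3 cells to those without Cd3 UMIs were chosen after seeing the data. Depth limits every value from the 37 control cells.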
